A study of Mus musculus with 8 samples.

Results

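In aortas of ApoE-/- and WT mice, 9 Toll-like receptor genes (*Tlr1*, *Tlr2*, *Tlr3*, *Tlr4*, *Tlr6*, *Tlr7*, *Tlr8*, *Tlr9* and *Tlr13*) and *Cd14* were followed. The receptor genes *Tlr5*, *Tlr11* and *Tlr12* were read with the rest of the pathway. The 10 genes were chosen by gene symbol, with earlier results of these data known. They are 10 of the 21859 genes counted in every library, and all 10 passed the filter on low counts. RNA of the whole aorta was sequenced from 4 ApoE-/- mice and 4 WT mice, 1 library per mouse. All mice were 40 weeks old, male, on the C57BL/6 background and fed a normal diet, so age, sex, background and diet were shared by both genotypes. ApoE-/- mice lack apolipoprotein E, which clears lipoprotein remnants from plasma, in all cells and from birth, and are a standard model of atherosclerosis. The comparison asks which genes of the diseased aorta differ from the healthy one.

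Toll-like receptors recognise microbial molecules and some products of damaged cells. TLR1, TLR2, TLR4 and TLR6 sit at the cell surface, where TLR2 pairs with TLR1 or TLR6 to bind lipoproteins and TLR4 binds lipopolysaccharide handed over by CD14. TLR3, TLR7, TLR8, TLR9 and TLR13 read nucleic acids inside endosomes, and in the vessel wall the family is known mainly from macrophages, dendritic cells and endothelium.

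By the GENCODE M21 annotation of GRCm38, *Tlr7* (chromosome X, 167304929 to 167330558, minus strand) and *Tlr8* (chromosome X, 167242696 to 167264329, minus strand) are neighbours, and *Tlr13* lies on the same chromosome (106143204 to 106160493, plus strand). The related genes *Tlr1* (64924679 to 64933563) and *Tlr6* (64952031 to 64960097) are neighbours on the minus strand of chromosome 5, and read pairs that align equally well to both could not be assigned to either. *Tlr2* is on chromosome 3 (83836272 to 83841767, minus strand), *Tlr4* on chromosome 4 (66827584 to 66930284, plus strand) and *Tlr9* on chromosome 9 (106222598 to 106226883, plus strand). *Tlr3* is on chromosome 8 (45395665 to 45411080, minus strand). These 9 genes and *Cd14* are annotated as protein-coding, and reads were counted over their exons with regard to strand.

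The promoter windows of 7 of the 10 genes were found in RefSeq (GRCm38.p6), each running from 250 bases before to 50 bases after the annotated start. No window was at hand for *Tlr4*, for *Cd14* or for *Tlr7*, the other endosomal receptor (2.24-fold). The windows of 4 endosomal receptors are shown because 3 of these genes had higher means in ApoE-/- aortas by 1.98- to 7.77-fold and *Tlr3* by 1.08-fold. They were thus picked by these means, and a link between motifs and differences was not tested. Capitals mark matches, on either strand, to GAGGAA, the core bound by the myeloid factor PU.1, or to a loose form of the NF-kB site (GGG, any 5 bases, CC).
Tlr13 (chrX:106143025-106143324, plus strand): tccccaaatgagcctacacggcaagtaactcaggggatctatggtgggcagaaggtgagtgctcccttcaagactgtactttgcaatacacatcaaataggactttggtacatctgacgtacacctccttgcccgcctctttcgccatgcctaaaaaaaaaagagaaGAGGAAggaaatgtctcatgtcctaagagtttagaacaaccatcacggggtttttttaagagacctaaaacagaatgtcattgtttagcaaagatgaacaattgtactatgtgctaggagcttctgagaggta
Tlr9 (chr9:106222348-106222647, plus strand): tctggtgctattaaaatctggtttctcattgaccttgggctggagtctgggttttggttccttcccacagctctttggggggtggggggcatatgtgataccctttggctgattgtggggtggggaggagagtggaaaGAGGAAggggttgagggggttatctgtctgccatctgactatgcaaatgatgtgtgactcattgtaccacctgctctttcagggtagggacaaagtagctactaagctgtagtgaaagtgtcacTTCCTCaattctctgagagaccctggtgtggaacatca
Tlr8 (chrX:167264280-167264579, minus strand): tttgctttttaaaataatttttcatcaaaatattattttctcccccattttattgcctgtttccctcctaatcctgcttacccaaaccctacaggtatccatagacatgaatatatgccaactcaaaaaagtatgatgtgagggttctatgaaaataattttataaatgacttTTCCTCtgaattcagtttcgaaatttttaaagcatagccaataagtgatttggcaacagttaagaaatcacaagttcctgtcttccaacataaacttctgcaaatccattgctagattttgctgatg
Tlr3 (chr8:45410331-45410630, minus strand): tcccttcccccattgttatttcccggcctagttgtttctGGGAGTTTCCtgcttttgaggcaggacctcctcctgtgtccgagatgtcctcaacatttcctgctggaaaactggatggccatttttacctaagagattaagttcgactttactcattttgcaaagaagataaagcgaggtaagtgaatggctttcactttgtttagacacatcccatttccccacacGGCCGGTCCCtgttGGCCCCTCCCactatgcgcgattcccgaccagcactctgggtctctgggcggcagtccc
GAGGAA was present once in the *Tlr13* window, from 83 to 78 bases before the start, once in the *Tlr8* window on the opposite strand, and at 2 places in the *Tlr9* window. It was also present once in 1 of the 2 *Tlr1* windows, and not in the windows of *Tlr2*, *Tlr3* and *Tlr6*. Of 32851 promoter windows of the same length, 28.3% contained it. The NF-kB motif was present in the windows of *Tlr2*, *Tlr3* and 1 of 2 of *Tlr6*, and in 50.8% of all windows, where neighbouring matches may overlap. Another motif (GAAA, any 2 bases, GAAA), which resembles an interferon response element, was present only in 1 *Tlr6* window among these genes and in 3.44% of all windows. These matches describe the letters of the windows, and binding was not measured.

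Between 23240995 and 23940156 read pairs were counted on genes in ApoE-/- libraries and between 18375898 and 21664598 in WT libraries. The share of pairs not counted on a gene was 64.4% to 67.7% in ApoE-/- and 69.8% to 72.1% in WT libraries, without overlap, and its part in the results was not tested. Levels are given as CPM, the count of a gene divided by the library's total after scaling with TMM factors, per 1000000 read pairs. *Apoe* itself was at 14.7 to 36.3 CPM in ApoE-/- aortas and at 536 to 857 CPM in WT aortas, so the labels held. ApoE-/- replicate 1 stood apart from the other ApoE-/- libraries. Smooth muscle genes, which mark the aortic wall, were detected in all 8 libraries. In replicate 1 the mean log2 CPM over 6 of them was 8.89, against 10.1 to 10.8 in the other ApoE-/- aortas and 9.98 to 10.9 in WT aortas. Results are therefore also given without it.

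The largest difference between genotypes among the 10 genes was that of *Tlr13*, with a mean of 19.9 ± 11.3 CPM against 2.57 ± 0.55 CPM in WT (SD, n = 4 each), a 7.77-fold ratio of means. *Tlr1*, *Tlr7*, *Tlr9* and *Cd14* had ratios between 1.95 and 3.24, and in each of these 5 genes every ApoE-/- aorta was above every WT aorta. The ratios of *Tlr2* and *Tlr8* were 1.89 and 2.82, with 1 ApoE-/- aorta within the WT range in each. *Tlr3*, *Tlr4* and *Tlr6* had ratios of 1.08 to 1.20, with overlapping groups. Whole aorta was measured, so a change in the number of cells of a type and a change in RNA per cell cannot be told apart.

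**Figure D1:**
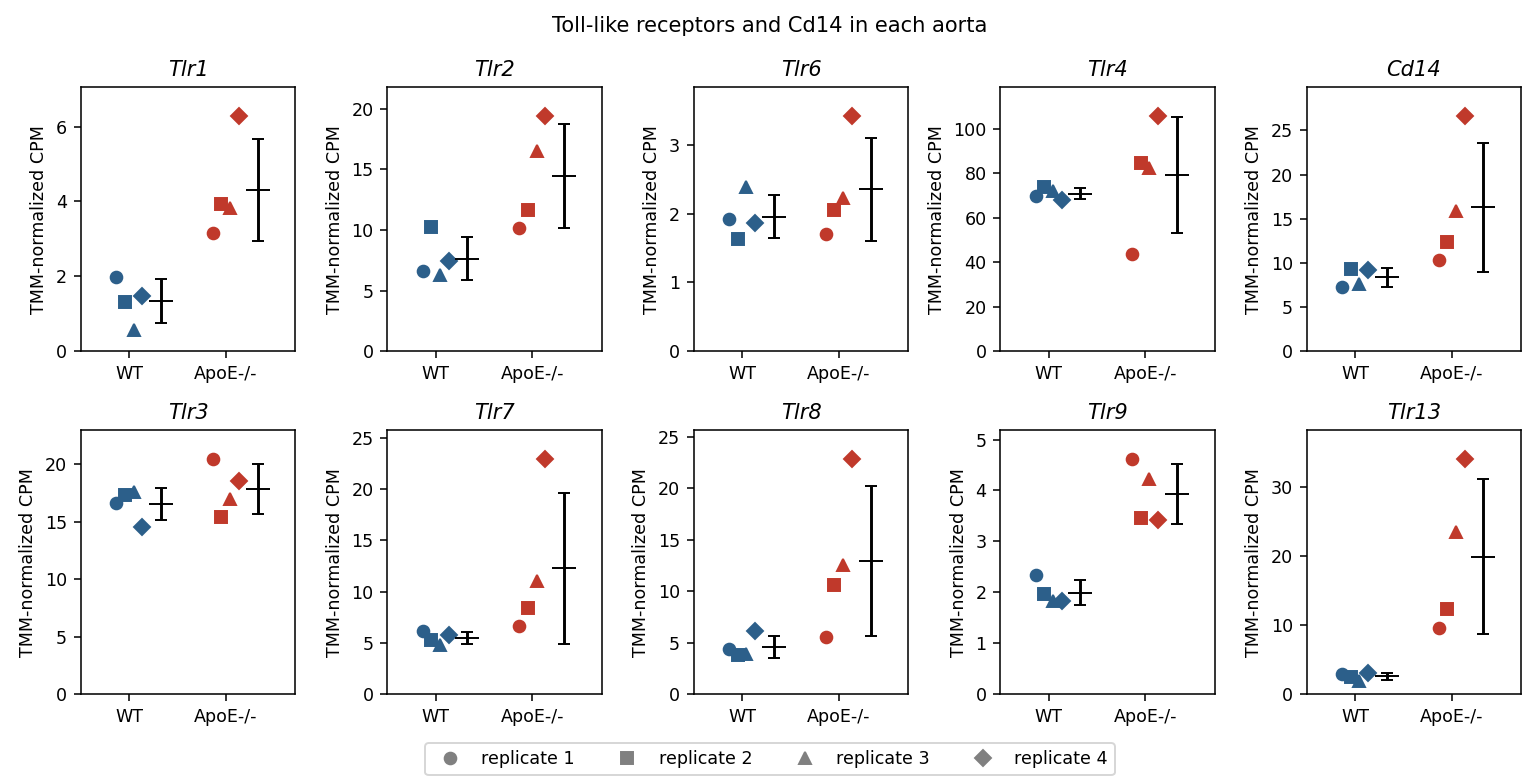
TMM-normalized CPM (vertical axes from 0) of 9 Toll-like receptor genes and *Cd14* in each of 4 WT and 4 ApoE-/- aortas, with a marker shape for each replicate number, which does not pair mice. Horizontal and vertical black lines are the mean and SD of 4 aortas; *Tlr13* ranges from 9.62 to 34.2 CPM in ApoE-/- and from 1.83 to 3.06 CPM in WT aortas.

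By the quasi-likelihood F test of edgeR, with p-values adjusted over all 15077 genes tested (Benjamini-Hochberg, threshold 0.05), 1 of the 10 genes, *Tlr13*, was called higher, beside 0.371% of all genes. At an unadjusted p under 0.05, 7 of 10 were higher, beside 7.19% of all genes. Of the 10 genes, 5 were higher in ApoE-/- aortas without overlap, beside 5.41% of all genes, and none was lower without overlap, beside 3.3%. DESeq2, which the study used, called *Tlr1*, *Tlr2*, *Tlr8*, *Tlr9* and *Tlr13* higher, 5 of 10, beside 3.12% of all genes. Without ApoE-/- replicate 1, edgeR called 4 of 10 higher (*Tlr1*, *Tlr2*, *Tlr8* and *Tlr13*), beside 2.75% of all genes. The median log2 fold change was 0.97 over the 10 genes and 0.05 over all genes tested.

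*Tlr13*, the endosomal receptor for a stretch of bacterial ribosomal RNA, was at 9.62, 12.4, 23.6 and 34.2 CPM in ApoE-/- replicates 1 to 4 and at 2.89, 2.48, 1.83 and 3.06 CPM in WT replicates 1 to 4. These values rest on 237 to 788 read pairs in ApoE-/- and 33 to 64 in WT libraries. The lowest ApoE-/- aorta was thus above the highest WT aorta, although ApoE-/- aortas also differed widely among themselves. The log2 fold change was 2.95 (SE 0.43, adjusted p = 0.0396 with edgeR, 3.50e-09 with DESeq2). With the replicate number as a block it was 2.80 (edgeR adjusted p = 0.139). Without ApoE-/- replicate 1 it was 3.18 (edgeR adjusted p = 0.00652). Leaving out any of the other 7 mice moved it to between 2.56 and 3.13 and raised edgeR's adjusted p above 0.05, to at most 0.169, while DESeq2 kept the call in all 8 such fits, with an adjusted p of at most 1.38e-06.

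*Tlr9*, the receptor for unmethylated CpG DNA, was at 4.63, 3.45, 4.23 and 3.43 CPM in ApoE-/- replicates 1 to 4. In WT replicates 1 to 4 it was at 2.34, 1.97, 1.83 and 1.82 CPM. Both groups were narrow and did not overlap, with a log2 fold change of 0.98 (SE 0.19). It missed edgeR's threshold (adjusted p = 0.0660) and passed that of DESeq2 (adjusted p = 0.00115), in which it stayed past the threshold whichever mouse was left out. ApoE-/- replicates 1 and 3 were the highest for *Tlr9*.

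*Tlr7*, a receptor for single-stranded RNA, was at 6.62, 8.40, 11.1 and 23.0 CPM in ApoE-/- replicates 1 to 4 and at 6.15, 5.24, 4.76 and 5.79 CPM in WT replicates. The groups did not overlap, but replicate 1 was close to the WT values and replicate 4 far above them. Its log2 fold change of 1.16 (SE 0.38) passed neither test, with adjusted p = 0.246 in edgeR and 0.0708 in DESeq2. Without ApoE-/- replicate 1 it was 1.36 (adjusted p = 0.0643 in edgeR and 0.00266 in DESeq2), and without replicate 4 it was 0.66 (0.241 and 0.131). Its neighbour *Tlr8* was at 5.52, 10.6, 12.5 and 22.9 CPM in ApoE-/- and at 4.41, 3.84, 3.93 and 6.08 CPM in WT replicates 1 to 4. Here ApoE-/- replicate 1 lay below the highest WT aorta and the other 3 lay above all WT aortas. The log2 fold change was 1.50 (SE 0.40, adjusted p = 0.157 in edgeR and 0.0133 in DESeq2), and 1.75 without replicate 1 (edgeR adjusted p = 0.0209). The DESeq2 call of *Tlr8* was lost in 5 of the 8 fits that left out a mouse (adjusted p up to 0.0828): those without ApoE-/- replicate 3 or 4 and without WT replicate 1, 2 or 3.

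*Tlr3*, the receptor for double-stranded RNA, was at 20.5, 15.4, 16.9 and 18.5 CPM in ApoE-/- and at 16.6, 17.3, 17.6 and 14.5 CPM in WT replicates 1 to 4. The groups overlapped, and the mean difference of 0.11 on the log2 scale was no larger than its error (SE 0.12, adjusted p = 0.822 in edgeR). It was 0.04 without ApoE-/- replicate 1.

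Among the surface receptors, *Tlr1* was at 3.17, 3.94, 3.83 and 6.29 CPM in ApoE-/- and at 1.97, 1.31, 0.554 and 1.48 CPM in WT replicates 1 to 4. The WT values came from 10 to 43 read pairs a library, and the groups did not overlap. *Tlr1* had a log2 fold change of 1.69 (SE 0.39, adjusted p = 0.106 in edgeR and 0.00250 in DESeq2). The DESeq2 call held whichever mouse was left out, and edgeR passed without ApoE-/- replicate 1 (1.80, adjusted p = 0.0473).

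*Tlr2*, the shared partner of TLR1 and TLR6, was at 10.2, 11.6, 16.5 and 19.4 CPM in ApoE-/- and at 6.61, 10.2, 6.26 and 7.42 CPM in WT replicates 1 to 4. ApoE-/- replicate 1 and WT replicate 2 were nearly level and the groups overlapped there only. Its log2 fold change was 0.92 (SE 0.25, adjusted p = 0.162 in edgeR and 0.0309 in DESeq2), and 1.06 without ApoE-/- replicate 1 (edgeR adjusted p = 0.0473). The DESeq2 call of *Tlr2* was lost in 5 of the 8 fits that left out a mouse (adjusted p up to 0.182): those without ApoE-/- replicate 3 or 4 and without WT replicate 1, 3 or 4. *Tlr6*, the other partner of TLR2, was at 1.70, 2.06, 2.22 and 3.43 CPM in ApoE-/- and at 1.93, 1.64, 2.38 and 1.87 CPM in WT replicates 1 to 4, from 35 to 79 read pairs. Only replicate 4 of the ApoE-/- aortas lay above all WT aortas, and its log2 fold change was 0.27 (SE 0.26, adjusted p = 0.804 in edgeR), or 0.03 without that replicate.

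*Tlr4*, the lipopolysaccharide receptor, was at 43.8, 84.8, 82.2 and 106 CPM in ApoE-/- and at 69.7, 73.7, 72.0 and 68.0 CPM in WT replicates 1 to 4. WT aortas were within a narrow range, whereas ApoE-/- replicate 1 was below and the other 3 were above all of them. Its log2 fold change was 0.16 (SE 0.24, adjusted p = 0.866 in edgeR), 0.36 (SE 0.11, adjusted p = 0.111) without ApoE-/- replicate 1, and -0.01 without ApoE-/- replicate 4. *Cd14*, the co-receptor that delivers lipopolysaccharide to TLR4 (chromosome 18, 36725067 to 36726798, minus strand), was at 10.3, 12.3, 15.9 and 26.7 CPM in ApoE-/- and at 7.30, 9.27, 7.59 and 9.24 CPM in WT replicates 1 to 4. Its groups did not overlap. For *Cd14* the log2 fold change was 0.96 (SE 0.29), past neither threshold with adjusted p = 0.212 in edgeR and 0.0584 in DESeq2. It was 1.13 without ApoE-/- replicate 1 (adjusted p = 0.0539 in edgeR and 0.00231 in DESeq2) and 0.62 without replicate 4 (0.228 and 0.115).

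**Figure D2:**
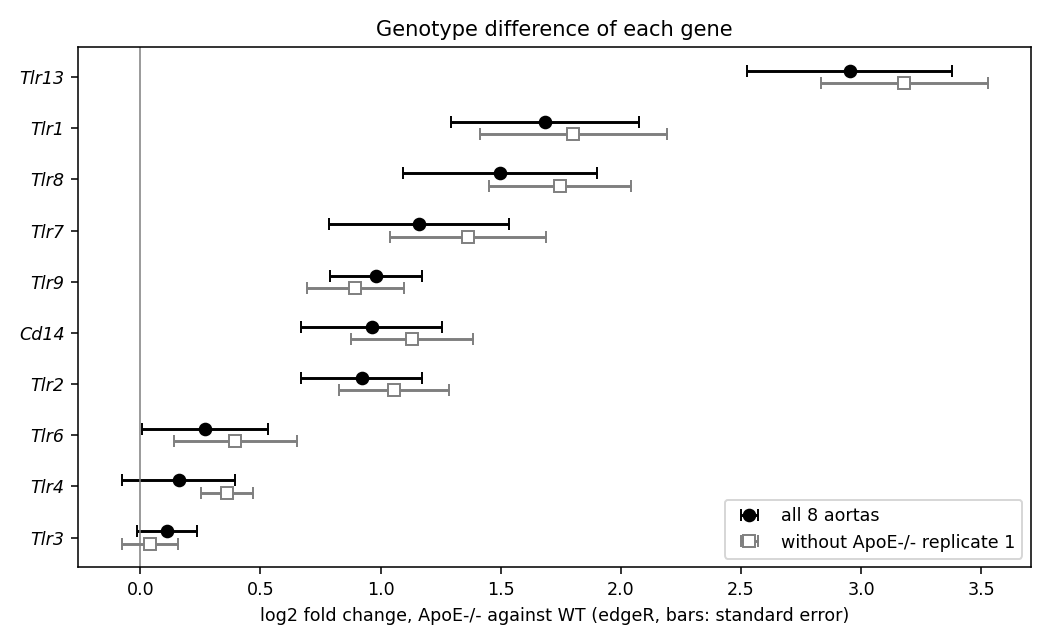
Log2 fold changes (horizontal axis, ApoE-/- against WT, edgeR) of the 10 genes with all 8 aortas (filled circles) and without ApoE-/- replicate 1 (open squares), with bars for the standard error. *Tlr13* lies farthest to the right at 2.95, and *Tlr3*, *Tlr4* and *Tlr6* lie between 0.11 and 0.27 with all aortas.

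ApoE-/- replicate 4 had the highest and replicate 1 the lowest value of the ApoE-/- aortas for 8 of the 10 genes. The exceptions were *Tlr3* and *Tlr9*, which were highest in replicate 1. ApoE-/- replicate 4 was also the aorta with the highest macrophage gene level, and replicate 1 that with the lowest among ApoE-/- aortas. Among these aortas the mean log2 CPM of fibroblast genes was likewise lowest in replicate 1 (8.38) and highest in replicate 4 (9.81). The part of either cell type in this order was not tested.

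Levels of different genes were compared per length, as CPM divided by the exon length in kilobases (RPKM). In WT aortas *Tlr4* was the highest at 12.8 ± 0.45 RPKM (SD, n = 4), followed by *Cd14* at 4.82 ± 0.61 RPKM, and the ranges of these and of the next gene, *Tlr3* at 3.17 ± 0.27 RPKM, were apart. *Tlr3* overlapped *Tlr2* (2.53 RPKM), and *Tlr7* (1.34 RPKM) overlapped *Tlr8* (1.27 RPKM). The lowest 4 genes, *Tlr13* (0.596 RPKM), *Tlr9* (0.572 RPKM), *Tlr6* (0.524 RPKM) and *Tlr1* (0.398 RPKM), each overlapped the next in order. *Tlr13* was thus among the rarest of these transcripts in the healthy aorta.

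In ApoE-/- aortas *Tlr4* again had the highest mean level (14.2 ± 4.66 RPKM), followed by *Cd14* (9.40 ± 4.22 RPKM) and *Tlr2* (4.79 ± 1.42 RPKM). *Tlr13* moved from rank 7 to rank 4, at 4.63 ± 2.62 RPKM. *Tlr8* (3.59 RPKM), *Tlr3* (3.43 RPKM), *Tlr7* (3.01 RPKM), *Tlr1* (1.29 RPKM), *Tlr9* (1.13 RPKM) and *Tlr6* (0.631 RPKM) followed. Neighbours in this order overlapped in range across mice except *Tlr9* and *Tlr6*. Within each ApoE-/- aorta, however, *Tlr4* was first, *Cd14* second and *Tlr6* last, while the places between them changed from mouse to mouse.

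**Figure D3:**
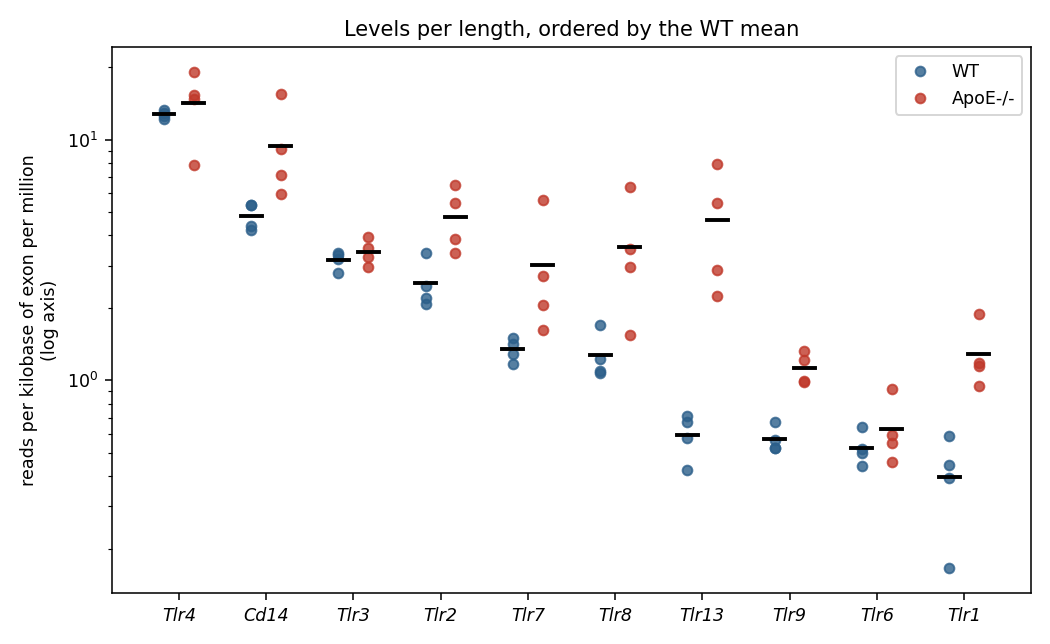
RPKM (log axis) of each gene in each aorta, ordered by the WT mean, with a black line at the mean of 4. *Tlr4* is at 12.8 RPKM in WT and 14.2 RPKM in ApoE-/- on average, while *Tlr13* goes from 0.596 to 4.63 RPKM.

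The summed level of the 9 receptors left out *Tlr5*, *Tlr11* and *Tlr12*. It was 22.4 to 24.3 RPKM in WT aortas and 23.3, 32.7, 38.2 and 52.8 RPKM in ApoE-/- replicates 1 to 4. *Tlr4* made up 55.1% ± 1.81 of this sum in WT (53.7% to 57.7%, SD, n = 4) and 38.8% ± 5.61 in ApoE-/- aortas (33.8% to 46.7%), without overlap. *Tlr13* made up 2.57% ± 0.55 in WT (1.89% to 3.13%) and 11.9% ± 3.21 in ApoE-/- aortas (8.80% to 15.0%), also without overlap. *Tlr1* made up 0.738% to 2.55% in WT and 3.00% to 4.06% in ApoE-/- aortas, likewise without overlap, and the shares of the other 6 receptors overlapped. The smaller share of *Tlr4* stood beside a mean level of its own of 12.8 RPKM in WT and 14.2 RPKM in ApoE-/- aortas.

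The log2 ratio of *Tlr13* to each other gene within an aorta is given as a description, since *Tlr13* was singled out after its values were seen. The mean ratio was higher in ApoE-/- aortas for all 9, by 1.02 against *Tlr1*, 1.46 against *Tlr8*, 1.81 against *Tlr7*, 1.83 against *Tlr9*, 1.90 against *Tlr2*, 1.93 against *Cd14*, 2.57 against *Tlr6*, 2.70 against *Tlr3* and 2.72 against *Tlr4*. The ratio to *Tlr1* overlapped between genotypes, and the other 8 did not. These 9 ratios share the *Tlr13* values and are not independent.

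Markers of the cells that an aorta can hold, chosen with earlier results of these data known, were read beside these results. All 12 macrophage genes were tested and had log2 fold changes above 0 (median 1.41), as did 58% of all genes tested, from 0.01 for the scavenger receptor gene *Cd163* to 2.37 for the lysozyme gene *Lyz2*, and 1 of them, the Fc receptor gene *Fcgr1*, was called by edgeR (2.32, adjusted p = 0.0355). At an unadjusted p under 0.05, 9 of the 12 were higher, beside 7.19% of all genes, and DESeq2 called 7 higher, beside 3.12%. Their mean log2 CPM was 5.30, 5.94, 6.15 and 7.02 in ApoE-/- replicates 1 to 4 and 5.14, 4.91, 4.77 and 5.07 in WT replicates 1 to 4. The groups did not overlap in this mean, whereas the summed CPM did, at 635 to 2522 in ApoE-/- and 536 to 653 in WT aortas. The part of the macrophage level in the receptor differences was not tested. ApoE-/- replicate 1, with the lowest macrophage mean of the 4, had the highest values of *Tlr9* and *Tlr3*.

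The mean of the macrophage genes was 6.10 log2 CPM in ApoE-/- and 4.97 in WT aortas, so that on a scale from which it is subtracted a gene of equal CPM in both genotypes has a difference of -1.13, which was also the median over all genes. On this scale 0.617% of all genes were higher and 49.5% lower in ApoE-/- aortas without overlap. *Tlr13* was at -1.95 on the log2 scale in ApoE-/- (-2.30 to -1.58) and at -3.59 in WT aortas (-3.83 to -3.41), a difference of 1.63 without overlap. *Tlr4*, at 1.18 in WT (0.99 to 1.40) and 0.14 in ApoE-/- aortas (-0.29 to 0.47), and *Tlr6*, with a difference of -0.91, were lower without overlap, but neither difference was as low as that of a gene of equal CPM, and the CPM of both genes had log2 fold changes above 0 (0.16 and 0.27). The other 7 genes overlapped between genotypes, with differences of 0.57 for *Tlr1*, 0.20 for *Tlr8*, -0.14 for *Tlr7*, -0.18 for *Tlr9*, -0.24 for *Tlr2*, -0.26 for *Cd14* and -1.02 for *Tlr3*. Of the 10, only *Tlr13* was higher without overlap on this scale.

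**Figure D4:**
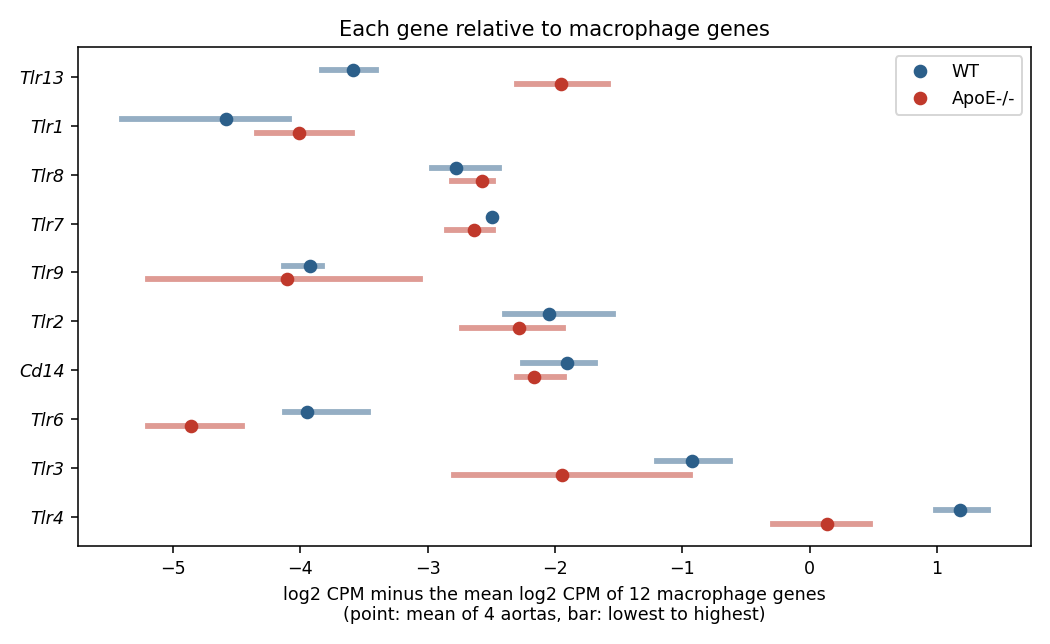
Log2 CPM of each gene minus the mean log2 CPM of 12 macrophage genes in the same aorta (horizontal axis), with a point for the mean of 4 aortas and a bar from the lowest to the highest, WT in blue and ApoE-/- in red. The bars are apart for *Tlr13* (-1.95 against -3.59) and, in the other direction, for *Tlr6* and *Tlr4*, on a scale where a gene of equal CPM in both genotypes has a difference of -1.13.

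*Tlr9* is also known from B cells, whose genes were read in the same way. The 5 B cell genes summed to 15.1, 6.87, 16.9 and 6.29 CPM in ApoE-/- replicates 1 to 4 and to 3.99 to 6.27 CPM in WT aortas, without overlap, so that replicates 1 and 3 were the highest ApoE-/- aortas for B cell genes as for *Tlr9*. None of the 5 was called by edgeR or DESeq2, and 3 were higher at an unadjusted edgeR p under 0.05, beside 7.19% of all genes. Their median log2 fold change was 1.29, and *Ms4a1*, which encodes CD20, was detected in all 8 libraries (11 to 100 read pairs). The part of B cells in the *Tlr9* difference was not tested.

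Of 8 neutrophil and monocyte genes 4 were tested, and the colony-stimulating factor receptor gene *Csf3r* was called higher by edgeR (1.97, adjusted p = 0.0379). DESeq2 called 3 of the 4 higher, beside 3.12% of all genes, and 3 were higher at an unadjusted edgeR p under 0.05, beside 7.19%. The list summed to 24.6 to 65.4 CPM in ApoE-/- and 8.97 to 18.9 CPM in WT aortas. Among its neutrophil genes *S100a9* had a log2 fold change of 2.25 without overlap (edgeR adjusted p = 0.0696). Of those too low to test, *S100a8* had 9 to 64 read pairs in ApoE-/- and 3 to 8 in WT libraries, *Cxcr2* 5 to 20 and 1 to 5, and *Ly6g* 0 or 1 in every library. The 7 dendritic cell genes summed to 70.0 to 81.2 CPM in ApoE-/- aortas, below the 85.4 to 100.4 CPM in WT aortas, a sum to which *Zbtb46* alone gave 44.1 to 57.6 and 62.6 to 76.0 CPM. Their mean log2 CPM overlapped between genotypes, and 5 of the 7 had log2 fold changes above 0 (median 0.28). edgeR called none of them, with 2 higher and 2 lower at an unadjusted p under 0.05, and DESeq2 called 1 lower. Median log2 fold changes were 0.81 for 4 T cell genes, 0.60 for 6 fibroblast genes, -0.14 for 6 smooth muscle genes, -0.38 for 6 endothelial genes, -0.56 for 5 adipocyte genes and -2.42 for 6 cardiac muscle genes. No gene of these 6 lists was called by edgeR. At an unadjusted p under 0.05, 2 T cell and 2 fibroblast genes were higher and 3 endothelial and 5 cardiac muscle genes lower. Over all 15077 genes tested, 1713 passed that threshold in either direction, and 7.19% were higher. DESeq2 called 2 fibroblast genes higher, beside 3.12% of all genes. It called 3 endothelial and 4 cardiac muscle genes lower, beside 255 of all 15077 genes. The summed cardiac muscle level was 154 to 336 CPM in ApoE-/- and 381 to 611 CPM in WT aortas. To this sum *Ryr2* alone gave 123 to 311 and 192 to 335 CPM, with a log2 fold change of -0.02. The mean log2 CPM of the 6 genes was 2.44 to 4.46 in ApoE-/- and 5.12 to 6.30 in WT aortas. The part of cardiac muscle or of any other cell type in the receptor differences was not tested.

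The remaining pathway was described with 57 genes, chosen with earlier results of these data known. Of these, 56 were tested, and *Tlr12*, with 0 to 12 read pairs a library, was not. edgeR called 2 of the 56 higher and none lower, beside 0.464% of all genes called in either direction, with 15 higher and 1 lower at an unadjusted p under 0.05, where 7.19% of all genes were higher. DESeq2 called 13 higher, beside 3.12% of all genes, and edgeR called 10 higher without ApoE-/- replicate 1, beside 2.75%. The median log2 fold change of the 56 was 0.25, against 0.05 over all genes.

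Both genes called by edgeR belong to the endosomal trafficking and folding group. *Slc15a3*, a transporter of the lysosomal membrane, was at 11.3 ± 5.55 CPM in ApoE-/- and 1.84 ± 0.21 CPM in WT aortas (SD, n = 4; log2 fold change 2.61, SE 0.39, adjusted p = 0.0396). *Lgmn*, which encodes a lysosomal protease that cleaves endosomal receptors, was at 191 ± 53.0 CPM in ApoE-/- and 75.1 ± 6.96 CPM in WT aortas (1.35, SE 0.20, adjusted p = 0.0396). Over all 56 pathway genes edgeR called 10 without ApoE-/- replicate 1 and 1 without replicate 2. It called 0 without ApoE-/- replicate 3 or 4, with any one WT mouse left out, or with the replicate number as a block. In these 7 fits 15 to 18 of the genes had an unadjusted p under 0.05, and DESeq2 called 7 to 14 when 1 mouse was left out. All 7 genes of this group had log2 fold changes above 0, beside 58% of all genes, and DESeq2 called 5, beside 3.12%, among them the trafficking chaperone *Unc93b1* (0.74, adjusted p = 0.0469 in DESeq2 and 0.192 in edgeR) and the protease gene *Ctsl* (1.17, adjusted p = 0.0239 in DESeq2 and 0.200 in edgeR).

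None of the 6 co-receptor and ligand transfer genes was called by edgeR. Beside 3.12% and 7.19% of all genes, DESeq2 and an unadjusted edgeR p under 0.05 each gave 2 higher. These were *Cd180*, a relative of the Toll-like receptors (6.48 ± 2.13 against 1.60 ± 0.56 CPM, SD, n = 4; log2 fold change 2.01, edgeR adjusted p = 0.0526), and its partner *Ly86* (1.65, edgeR adjusted p = 0.0897). Of 6 adaptor genes edgeR called 0, and DESeq2 called *Pik3ap1*, which couples receptors to phosphoinositide 3-kinase (1.65, adjusted p = 0.0526 in edgeR and 1.02e-05 in DESeq2); it was also the 1 adaptor gene at an unadjusted p under 0.05. *Myd88*, the adaptor of most of these receptors, overlapped between genotypes at 16.4 to 25.6 CPM in ApoE-/- and 14.7 to 16.5 CPM in WT aortas (0.32, edgeR adjusted p = 0.499).

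The counts of each group stand beside 7.19% of all genes higher at an unadjusted edgeR p under 0.05 and 3.12% called higher by DESeq2. Among 15 kinases and ligases edgeR called 0, and the tyrosine kinase gene *Btk* was called by DESeq2 (1.28, adjusted p = 0.0107 in DESeq2 and 0.120 in edgeR). *Btk* and *Traf3*, a ubiquitin ligase of the interferon branch (0.60, edgeR adjusted p = 0.189), were the 2 at an unadjusted p under 0.05, and the median of the group was 0.06. Of 9 transcription factor genes edgeR called 0, 4 were higher at an unadjusted p under 0.05 and DESeq2 called 3, with *Irf8* at 1.10 (edgeR adjusted p = 0.0526) and *Irf5* at 1.18 (edgeR adjusted p = 0.0870), both interferon regulatory factors of myeloid cells. Of 11 negative regulators edgeR called 0, 1 was higher and 1 lower at an unadjusted p under 0.05, and DESeq2 called *Tnfaip3*, which encodes the deubiquitinase A20 (0.94, adjusted p = 0.0196 in DESeq2 and 0.138 in edgeR). *Sigirr*, which encodes an inhibitory receptor of the same family of domains, was at 6.52 to 9.03 CPM in ApoE-/- and 9.10 to 11.7 CPM in WT aortas (-0.46, edgeR adjusted p = 0.272). Of the 2 other Toll-like receptor genes tested, *Tlr5* had a log2 fold change of 0.37 and *Tlr11* of 0.28, and neither passed edgeR, DESeq2 or an unadjusted p under 0.05.

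**Figure D5:**
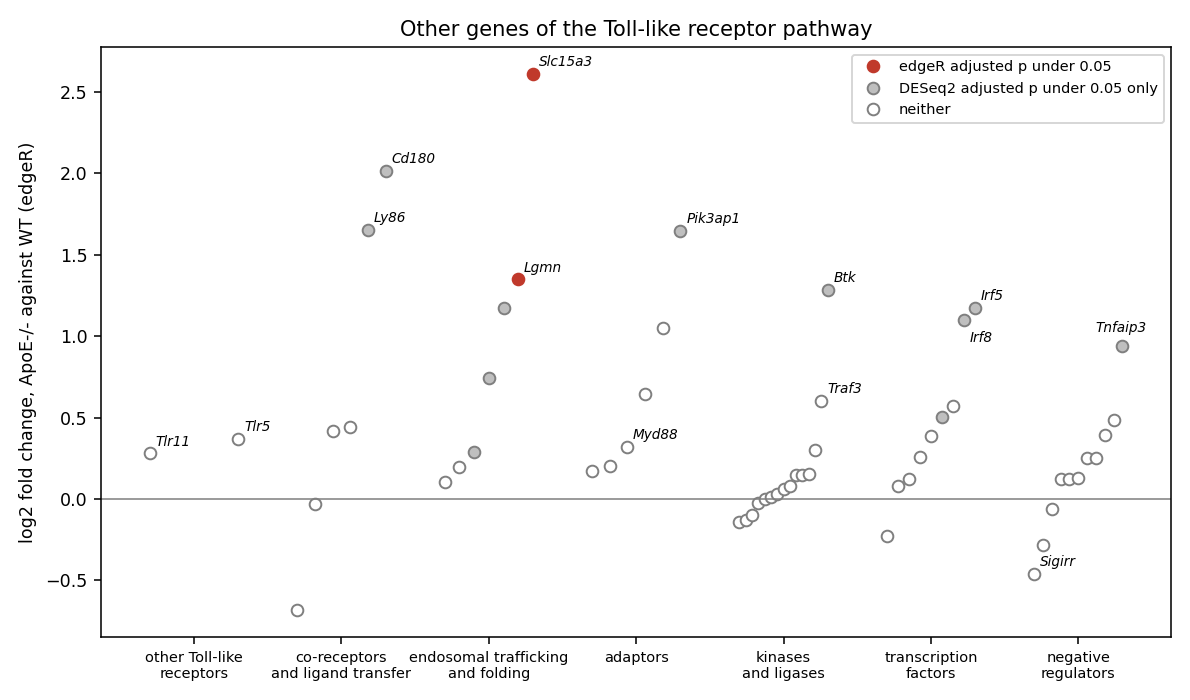
Log2 fold changes (vertical axis, ApoE-/- against WT, edgeR) of 56 other genes of the pathway in 7 groups, red where edgeR's adjusted p passed 0.05, grey where only that of DESeq2 did, and open otherwise. *Slc15a3* (2.61) and *Lgmn* (1.35) are the red points, and the kinases and ligases lie around 0 with a median of 0.06.

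Genes most like each of the 10 were found by the root mean square difference of mean-centred log2 CPM over the 8 aortas, a description without a test that includes the genotype difference itself. For *Tlr13* they were *Mpeg1*, which encodes a pore-forming protein of macrophages (0.157), the Fc receptor gene *Fcgr4* (0.205) and the cystine transporter gene *Slc7a11* (0.244). For *Tlr8* they were the chemokine gene *Ccl9* (0.173), the Fc receptor chain gene *Fcer1g* (0.188) and the complement gene *C1qc* (0.188), and for *Tlr7* they were *Cd200r1* (0.115), *Ctsl* (0.125) and *C5ar1* (0.137). For *Tlr1* they were *Mcoln2* (0.212), *Itgam* (0.266) and *Pirb* (0.294), and for *Tlr9* they were *Csf2rb* (0.102), *H2-DMb2* (0.146) and *Slc1a4* (0.159).

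Among the 10 genes themselves, *Cd14* ranked 6 among the genes most like *Tlr2* (0.188) and 15 among those most like *Tlr7* (0.196), and *Tlr7* ranked 23 for *Tlr8* (0.277). *Cd14* was most like *Litaf* (0.130), *Fermt3* (0.142) and *H1f1* (0.146), and *Tlr2* most like *Sfrp1* (0.145), *Tnfrsf1b* (0.172) and *Serpinb1a* (0.176). The genes with little difference between genotypes had other neighbours: *Tlr3* was most like *Mcrip1* (0.0481), *Prkrip1* (0.0593) and *Tsn* (0.0603), *Tlr4* most like *Ces2g* (0.0547), *Fkbp9* (0.0660) and *Rnft1* (0.0802), and *Tlr6* most like *H3c14* (0.108), *Maf* (0.117) and *Msrb1* (0.125).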

How the data were processed

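Aortic RNA was isolated with Trizol and an RNeasy kit and sequenced as paired-end, stranded, ribodepleted total RNA libraries, 1 per mouse. The authors deposited, for each mouse, raw counts of read pairs per gene without normalization, made from uniquely aligned pairs with regard to strand. The submitters' processing notes name TopHat2, HTSeq and the builds GRCm38 and mm10; versions and the annotation were not given in the sources used here. Pairs on no gene, on several genes or aligned to several places (64.4% to 67.7% of all pairs in ApoE-/- and 69.8% to 72.1% in WT libraries) stayed out of library sizes and tests. Of 21859 identifiers, 21817 matched GENCODE M21, which gave coordinates and exon lengths, and 42 did not.

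Genotypes came from the sample labels. With R 4.3.3 and edgeR 4.0.16, filterByExpr kept 15077 genes, TMM factors were computed, and glmQLFit (robust) with glmQLFTest compared genotypes, two-sided, with genotype as the only factor; p-values were adjusted over all genes tested (Benjamini-Hochberg, threshold 0.05). The standard error was taken as the log2 fold change divided by the square root of F. CPM used TMM library sizes, log2 CPM a prior count of 2, and RPKM the merged exon length. Counting error is wide for genes with 10 to 50 pairs in a library. The replicates are separate mice, and the scripts were tested on simulated data.

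The 10 genes, the pathway groups and the marker lists (macrophage, neutrophil and monocyte, dendritic cell, B cell, T cell, endothelium, smooth muscle, fibroblast, cardiac muscle, adipocyte) were chosen with earlier results of these data known. Named were all 10 genes, pathway genes past the threshold, the 2 with the smallest p in each pathway group, the 3 most like each of the 10, and marker genes on which a result turned; *Unc93b1* and *Ctsl* were named after their values were seen. Alternatives were DESeq2 1.42.0, scaling in edgeR by DESeq2's factors or by the upper quartile, no filter or at least 10 counts in every library, dispersions without robust estimation, a block for the replicate number, and fits without each mouse in turn; DESeq2 leaving out each mouse was added after the data were seen. Figures used matplotlib 3.10.9.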

Additional observations from a re-analysis of the deposited data

How the results depend on the processing

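The number of genes called depended on the test and on single mice. edgeR called 70 of all genes, 1 of the 10 and 2 of the 56 pathway genes, DESeq2 called 725, 5 and 13, and the cause was not tested. With the replicate number as a block edgeR called 2, 0 and 0 (1723 of all 15077, 7 of the 10 and 16 pathway genes at an unadjusted p under 0.05). *Tlr13* then had a log2 fold change of 2.80 and lost its call (edgeR adjusted p = 0.139). The numbers were not taken to pair mice, since deviations of same-numbered mice correlated at 0.06, -0.45, 0.32 and 0.16, and 1 of the 4 ApoE-/- mice correlated best with its own number. Leaving out each mouse, edgeR called 0 to 593 of all genes, 0 to 4 of the 10 and 0 to 10 pathway genes, with all 3 maxima without ApoE-/- replicate 1 and none of the 10 called in each of the other 7 fits, where 7 of the 10 had an unadjusted p under 0.05, beside 1269 to 1922 of the 15151 to 15236 genes tested. DESeq2 called 445 to 1562, 3 to 7 and 7 to 14 when each mouse was left out, an alternative chosen after seeing the data. The log2 fold change of *Tlr4* ranged from -0.013 to 0.36 in edgeR and from -0.017 to 0.36 in DESeq2 and changed sign without ApoE-/- replicate 4. The other 9 genes kept their direction in every alternative. Other scaling, filters and no robust estimation called 50 to 74 of all genes and 1 of the 10, and scaling moved the median log2 fold change of all genes from 0.05 to between 0.01 and 0.04. Depth limits *Tlr1*, *Tlr6* and *Tlr9*, with 10 to 145 read pairs a library, and the WT level of *Tlr13*, with 33 to 64.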
